A study of Mus musculus with 5 samples.

Results

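The complexin family of the mouse has 4 genes, *Cplx1*, *Cplx2*, *Cplx3*, and *Cplx4*, and all 4 were taken here by their symbols from the annotation of a microarray that names 19938 genes. Each was read by 1 probe set, a group of probes that measures 1 gene. Expression was measured on 5 arrays of neurons from the primary somatosensory cortex (S1). Long association neurons gave 3 of them, from L2/3, from L5, and from L6b, and callosal neurons gave 1 from L2/3 and 1 from L5. The mice were wild-type ICR mice at postnatal day (PD) 24, and no group carried a deletion or a drug treatment. Green RetroBeads, a tracer taken up by axon terminals and carried back to the cell body, had been injected 3 days earlier, at PD21. Injection into the primary motor cortex (M1) marked association neurons, and injection into the contralateral S1 marked callosal neurons. The paper's methods add that the mice of all groups had been electroporated in utero with a plasmid for the red protein tdTomato in L2/3 neurons. About 1000 labeled neurons per group were cut out by laser microdissection. The labels do not say how many animals a pool came from, and bulk RNA of such pools cannot tell fewer expressing cells from less RNA per cell.

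Complexins are small cytosolic proteins that bind the SNARE complex, the bundle of helices from *Snap25*, syntaxin, and synaptobrevin proteins that pulls a synaptic vesicle onto the plasma membrane. They hold back spontaneous fusion and promote the fast fusion that synaptotagmin triggers when calcium enters. *Cplx1* and *Cplx2* encode the closely related forms found at conventional synapses of the forebrain. *Cplx3* and *Cplx4* encode forms with a C-terminal signal for attachment of a farnesyl lipid and are best known from the ribbon synapses of the retina. In the cortex, *Cplx3* is a marker of neurons of the subplate (SP) and of L6b, its remnant in the mature brain, so the question here was how its paralogs compared with it.

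Of the 4 genes, *Cplx3* was far higher in L6b than in any other array, *Cplx1* was lowest in L6b and highest in L5, *Cplx2* differed little among the arrays, and *Cplx4* was dim in all of them. With 1 array per group there are no replicates and no test, and the spread behind each value is unknown. Signals are given as log2 values minus the median of the array over all probe sets, so that 0 is the median signal of an array. L6b enrichment is the signal in the L6b array minus the mean of the other 4 arrays. A difference of at least 2-fold, which is 1 on this scale, was used as a rule of size. The family was set beside the 12632 genes whose signal was at or above the median of 1 array or more, a filter that *Cplx1*, *Cplx2*, and *Cplx3* passed and *Cplx4* did not.

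The labels of the arrays were checked against markers. The 10 L6b/SP markers other than *Cplx3*, taken without a filter, had a linear signal that summed to 51.7 times the array median for L6b and to 11.7 to 12.1 times for the other arrays. *Ctgf*, annotated as *Ccn2*, was the largest part of the L6b sum, at 4.63 in L6b. The summed linear signal of 11 L2/3 markers was 131 and 110 times the array median in the L2/3 arrays, 31.5 and 34.2 in the L5 arrays, and 17.3 in L6b. *Calb1* and *Lamp5* made up most of the sums in the L2/3 arrays, at 5.82 and 5.59 in association L2/3 and 5.55 and 5.32 in callosal L2/3. *Otof* and *Mdga1* differed little among the arrays, and *Pou3f3* was highest in L6b, at 0.72. *Fezf2*, a transcription factor of L5 projection neurons, stood at 1.39 and 2.04 in the L5 arrays and at -0.20 and -0.34 in the L2/3 arrays. The 11 L5 markers together had summed signals of 93.9 and 93.6 in the L5 arrays, 85.8 in L6b, and 37.6 and 25.5 in the L2/3 arrays. *Pcp4* made up most of the L5 and L6b sums, at 5.99 in association L5, 6.14 in callosal L5, and 6.16 in L6b. The sums therefore could not set L5 apart from L6b. *Rbp4*, *Etv1*, *Fezf2*, *Sulf2*, *Deptor*, and *Qrfpr* were lower in L6b than in both L5 arrays. *Bcl11b* and *Npr3* were higher in L6b than in both, and *Parm1* and *Tcerg1l* lay between. Single members went against the layer label: in association neurons *Etv1* stood at 2.75 in L2/3 and 1.65 in L5, and in callosal neurons *Rbp4* stood at 2.20 in L2/3 and 1.12 in L5. Across the 10 pairs of arrays the correlation over all probe sets was 0.918 to 0.938, with the 2 lowest values in pairs of L6b with an L2/3 array.

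The reference sequences around the start sites of *Cplx3* and *Cplx1* are shown because their L6b enrichment was the largest in size of the family, in opposite directions. Only *Cplx3* was 2-fold or more apart in L6b from every other array. They are windows from 250 bases before to 50 bases after the start of the gene, from RefSeq on build GRCm38.p6, and 3 of the 4 genes matched the table, *Cplx4* being the other. The *Cplx3* window lies at chr9:57606232-57606531 and the *Cplx1* window at chr5:108549978-108550277, both on the minus strand. Capitals mark matches to CACGTG and CAGCTG, forms of the E-box read by basic helix-loop-helix factors, which are the same on both strands.
Cplx3: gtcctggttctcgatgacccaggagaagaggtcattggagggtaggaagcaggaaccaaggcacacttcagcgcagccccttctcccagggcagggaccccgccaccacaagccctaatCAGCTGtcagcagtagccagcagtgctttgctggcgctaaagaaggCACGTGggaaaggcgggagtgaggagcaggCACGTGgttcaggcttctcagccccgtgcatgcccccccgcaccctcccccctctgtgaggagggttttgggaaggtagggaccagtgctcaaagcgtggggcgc
Cplx1: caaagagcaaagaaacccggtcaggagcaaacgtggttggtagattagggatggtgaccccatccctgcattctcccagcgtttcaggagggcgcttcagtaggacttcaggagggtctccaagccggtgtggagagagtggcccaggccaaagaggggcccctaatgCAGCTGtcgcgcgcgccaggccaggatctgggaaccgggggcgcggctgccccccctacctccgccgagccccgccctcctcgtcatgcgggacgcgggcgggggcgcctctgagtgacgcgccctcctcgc
The *Cplx3* window holds CACGTG at 2 places, at positions -85 and -55 counted from the start, and at least 2 matches occur in 0.594% of 32851 windows of this length (at least 1 in 7.15%). The windows of *Cplx1* and *Cplx2* hold none. CAGCTG occurs once in each of the 3 windows and in 16.3% of all windows. The other motifs searched, each on both strands, were the GC box GGGCGG, the cAMP response element TGACGTCA, and the TATA box TATAAA. The GC box occurs 2 times in the *Cplx1* window, and at least 2 matches occur in 19.5% of all windows (at least 1 in 35.7%), and none of the 3 windows holds the other 2 motifs, which occur in 1.79% and 13.6% of windows. The share of G and C is 67% for *Cplx1*, 62.7% for *Cplx3*, and 53.3% for *Cplx2*, against a median of 52.7%. These matches are a description of letters, and no binding was measured.

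*Cplx3* stood at 5.22 in the L6b array. It stood at 0.02 in L5 and -0.04 in L2/3 of association neurons, and at 0.39 in L5 and -0.37 in L2/3 of callosal neurons. Only the L6b signal lay clear of the array median, and the other 4 arrays lay around it. The L6b signal minus that of the next array, callosal L5, was 4.83, and minus that of the lowest array, callosal L2/3, it was 5.59. Signals as dim as those outside L6b could not be told from background, so no exact fold is given. Of the 4 complexin genes, 1 thus exceeded every other array by 2-fold or more in L6b, as did 1.26% of the 12632 genes. L6b was the highest array by any size for *Cplx3* and *Cplx4*, and for 21.3% of all genes. In none of the other 4 arrays did a complexin gene stand 2-fold or more above or below all the rest. The shares of all genes that stood so far above were 2.34% in association L2/3, 1.31% in association L5, 1.67% in callosal L2/3, and 1.31% in callosal L5, and the shares below were 0.158%, 0.823%, 0.451%, and 0.356%. A range over the 5 arrays at least as wide as that of *Cplx3* was found in 0.111% of these genes, whose median range was 0.53. *Cplx3* is listed as an L6b/SP marker by the study and was known to be high in this array, so these values are a description and not independent evidence.

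Among the other 4 arrays *Cplx3* had a range of 0.76, which is 1.69-fold. This range was matched or exceeded by 30.5% of the 12632 genes over the same 4 arrays. Within these 4, the L5 arrays lay above the L2/3 array of the same projection, by 0.06 in association and by 0.76 in callosal neurons. All of these signals were near the array median, where signals are dim.

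The genes that neighbor *Cplx3* on chromosome 9 did not share its profile. *Lman1l*, the next protein-coding gene on the side of the *Cplx3* start, stood at 0.53 in L6b and between 0.30 and 0.40 in the other arrays. *Ulk3*, on the other side, stood at -0.01 in L6b and at 0.05 to 0.48 elsewhere. Their L6b enrichment was 0.16 and -0.17, beside 5.22 for *Cplx3*.

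**Figure D1:**
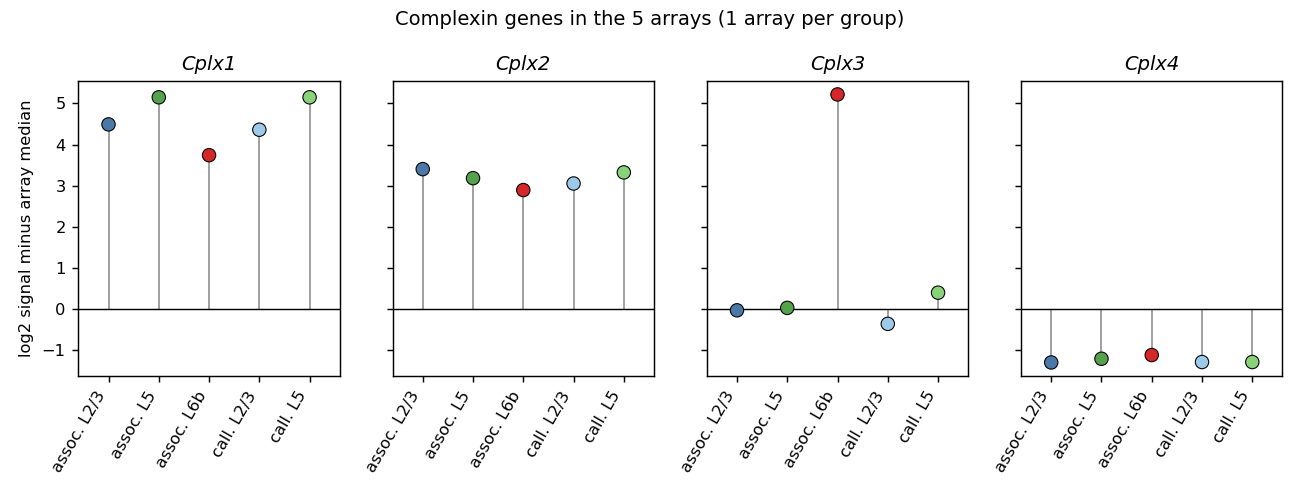
Log2 signal minus the array median (vertical axis) of the 4 complexin genes (panels) in the 5 arrays (horizontal axis), 1 point per array, with a line at 0 for the array median. The red L6b point of *Cplx3* is at 5.22 and its other points are between -0.37 and 0.39, *Cplx1* is lowest in L6b at 3.74, and *Cplx4* lies below the array median in every array.

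*Cplx1* differed from *Cplx3* in the place of L6b, which was its lowest array. It stood at 5.15 in both association L5 and callosal L5, at 4.49 in association L2/3, at 4.36 in callosal L2/3, and at 3.74 in association L6b. The 5 arrays therefore fell in the order of L5, L2/3, and L6b from highest to lowest. L6b is 1 array of association neurons, and the L5 and L2/3 arrays are not replicates, so overlap between layers could not be judged. The lower L5 array was 0.66 above the higher L2/3 array, and the lower L2/3 array was 0.62 above L6b, each between 1.5-fold and 2-fold and similar in size to the SD of the differences between 2 arrays over the 12632 genes, 0.605 to 0.759. Both L5 arrays were above both L2/3 arrays in 9.85% of the 12632 genes, and at least 1.5-fold above in 0.72%, among them *Cplx1*. This mark is lower than the 2-fold rule of size, which *Cplx1* did not reach between L5 and L2/3. The gap of 0.66 is 1.58-fold, just over the mark, so the 0.72% does not show that *Cplx1* was exceptional. In single pairs, 18.9% of genes in association and 12.1% in callosal neurons were at least as far apart. The L6b array was the lowest of the 5 for 30.5% of all genes, so a lowest value in L6b was common.

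The L6b enrichment of *Cplx1* was -1.05, a 2.07-fold lower signal, and 765 of the 12632 genes, with *Cplx1* counted, had values as low or lower. It was not at least 2-fold lower than each other array, since the L2/3 arrays were closer, and neither was another complexin gene (0 of 4, beside 2.82% of all genes). With the values as deposited the enrichment was -0.99, under the 2-fold mark.

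*Cplx2* stood at 3.40 in association L2/3, 3.32 in callosal L5, 3.18 in association L5, 3.05 in callosal L2/3, and 2.89 in association L6b. The steps between neighbors in this order were 0.08 to 0.16, and neither layer nor projection ordered the arrays. Its range of 0.51, which is 1.42-fold, was close to the median range of all genes, 0.53, and 51.6% of genes had a range at least as wide. The L6b enrichment was -0.35. L6b was its lowest array under subtraction of medians, but callosal L2/3 was lowest after quantile normalization, where L6b lay 0.09 above it.

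*Cplx4* stood at -1.13 in L6b, at -1.22 and -1.31 in L5 and L2/3 of association neurons, and at -1.30 in each callosal array. Its signal was below the array median in all 5 arrays, between 0.403 and 0.457 times the median. The range was 0.18, and the L6b enrichment of 0.15 rests on these dim signals. The other farnesylated complexin thus did not share the L6b signal of *Cplx3* on these arrays. The deposited table gives no detection call, so a dim signal could not be told from background.

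The L6b enrichment of *Cplx1* minus that of *Cplx3* was -6.27, and that of *Cplx2* minus that of *Cplx3* was -5.57, with the dim signals of *Cplx3* outside L6b on 1 side of both. These differences between genes do not change when all signals of an array are shifted by a constant. The signal of 1 complexin gene was not compared with that of another within an array, since the probes differ. A signal called dim was set against the median of all probe sets, and sums over marker lists add different probe sets, so bright ones weigh most.

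Pairs of arrays were then compared by layer and by projection, in 6 contrasts that share arrays with each other. Between L6b and L5 of association neurons, 2 of the 4 genes were at least 2-fold apart, beside 10.7% of all genes. The signal of *Cplx3* was 5.20 higher in L6b and that of *Cplx1* was 1.41 lower (difference -1.41), while *Cplx2* differed by -0.29 and *Cplx4* by 0.09. Between L6b and L2/3 of association neurons, 1 of the 4 was at least 2-fold apart, beside 13.4% of all genes, namely *Cplx3* at 5.26. The L6b minus L2/3 difference was -0.75 for *Cplx1*, -0.51 for *Cplx2*, and 0.18 for *Cplx4*.

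Between L5 and L2/3, none of the 4 genes was 2-fold apart, beside 10.8% of all genes in association and 8.6% in callosal neurons. *Cplx1* was higher in L5 in both, by 0.66 in association and by 0.79 in callosal neurons, and 18.9% and 12.1% of genes were at least as far apart. *Cplx2* was lower in L5 of association neurons (-0.22) and higher in L5 of callosal neurons (0.27). *Cplx4* differed by at most 0.09.

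Between association and callosal neurons, none of the 4 genes was 2-fold apart in L2/3 (8.55% of all genes) or in L5 (8.46%). *Cplx1* was 0.13 higher in association neurons in L2/3 and had equal signals in L5. The association minus callosal difference of *Cplx2* was 0.35 in L2/3 and -0.14 in L5, and that of *Cplx3* was 0.33 and -0.37. The difference of *Cplx2* thus turned its sign both between layers and between projections, while *Cplx3* turned its sign between layers only.

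**Figure D2:**
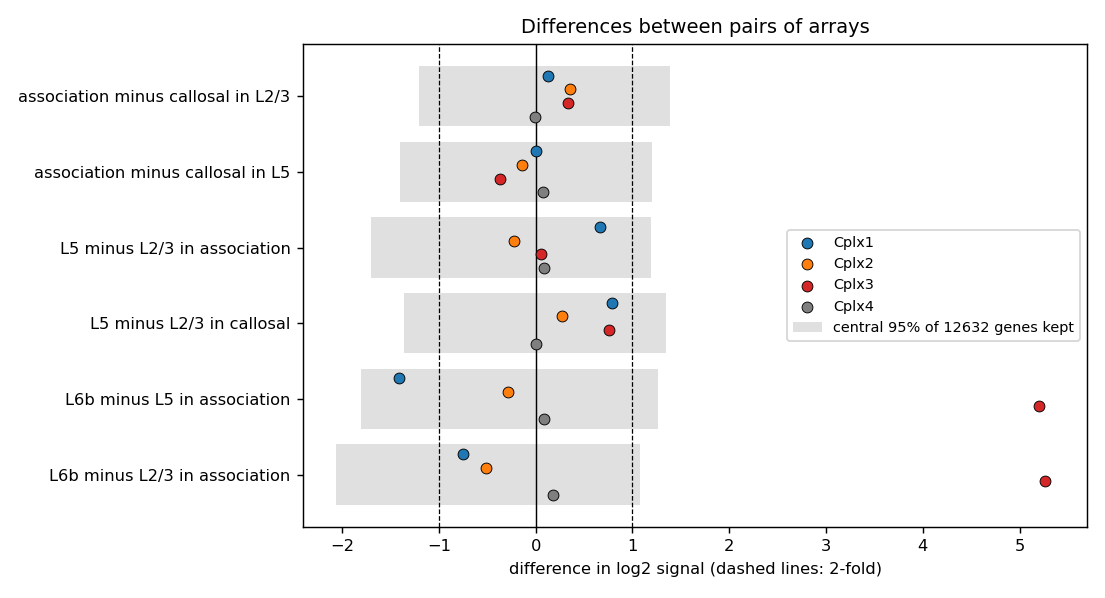
Difference in log2 signal (horizontal axis) of the 4 complexin genes (colored points) in 6 contrasts between pairs of arrays (vertical axis), with dashed lines at 2-fold. Gray bars span the central 95% of the differences of the 12632 genes. *Cplx3* lies at 5.20 and 5.26 in the contrasts with L6b, outside the gray bars, and *Cplx1* at -1.41 between L6b and L5 lies inside them.

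The genes with the nearest profiles were found by the mean absolute difference of the 5 centered values, over the 5 arrays and 11728 named genes past the filter. For *Cplx3* the 5 nearest were *Insyn2a*, a gene of inhibitory synapses (0.382), *Lhfpl3* (0.414), *Tnmd*, which encodes the tendon protein tenomodulin (0.426), *Nxt1*, which encodes a factor of mRNA export (0.432), and the pseudogene *Rps19-ps3* (0.481). Their L6b enrichment was 3.72 to 5.13, and no gene came within 0.1 of *Cplx3*. These genes were picked for their likeness to *Cplx3*, so high L6b values followed from the choice. *Tnmd* passed the filter through L6b alone, at 3.59 there and -0.85 to -0.47 elsewhere. For *Cplx1* the nearest were *Gsto1*, a glutathione transferase gene (0.064), *Ergic3* (0.0912), *Mtif3* (0.102), *Rab5if* (0.122), and *Tarsl2* (0.126), with L6b enrichment of -1.35 to -0.79. Only *Gsto1* and *Ergic3* came within 0.1. For the flat profile of *Cplx2*, 214 genes came within 0.1, the nearest being *Hsd17b7*, *Plpp6*, *Dhx32*, *Nap1l1*, and *Slc7a4*. For *Cplx4*, 3611 genes did, and the nearest, *Asb10*, *Zfp444*, *Tbx4*, *Slc5a11*, and *Kcna7*, say no more than that the profile was flat.

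The other L6b/SP markers shared the direction of *Cplx3* at smaller sizes. *Ctgf*, annotated as *Ccn2*, which encodes a secreted matrix protein, had an L6b enrichment of 3.65. *Moxd1*, which encodes a monooxygenase-like protein, had 2.65, and *Trh*, the gene of thyrotropin-releasing hormone, had 2.48. *Hs3st4*, a heparan sulfate sulfotransferase gene, had 2.16, and *Nr4a2*, which encodes Nurr1, a nuclear receptor, had 1.34. *Tpd52l1*, *Nxph4*, and the dopamine receptor gene *Drd1* had 0.64, 0.54, and 0.47. *Moxd1* passed the filter through L6b alone, since it lay between -1.21 and -0.85 in the other arrays. The other 2 markers, *Htr1d* and *Inpp4b*, did not pass the filter.

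**Figure D3:**
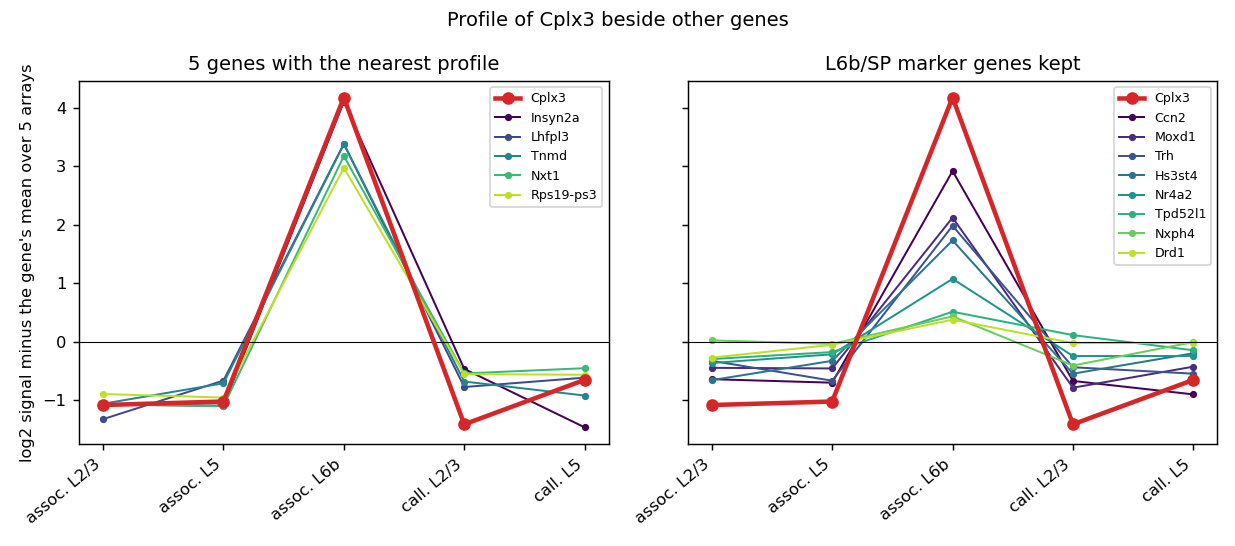
Log2 signal minus the mean of the gene over the 5 arrays (vertical axis) for *Cplx3* (thick red line) in the 5 arrays (horizontal axis), beside the 5 genes of nearest profile (left) and the 8 L6b/SP markers that passed the filter (right). Lines join the points of 1 gene and stand for no order of the arrays. Every gene shown peaks in association L6b, where 21.3% of all genes were highest, and *Cplx3* has the highest peak in both panels, 4.18. The genes on the left were picked for likeness to *Cplx3*, so their peak in L6b was fixed by the choice. On the right, *Moxd1* passed the filter through L6b alone.

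Besides the complexins, 61 genes of vesicle fusion were followed, among them genes of the SNARE proteins that complexins bind. Of the 61, 57 have a probe set that names 1 gene and 54 passed the filter. Their median L6b enrichment was -0.09, near the median of -0.06 over all 12632 genes, and it changed sign with the scaling (0.02 after subtraction of 75th percentiles). In L6b 2 of the 54 (3.70%) stood 2-fold or more above all other arrays and 4 (7.41%) stood 2-fold or more below them, beside 1.26% and 2.82% of all genes.

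Among the SNARE proteins, *Snap25*, the plasma membrane SNARE of synapses, stood at 6.73 in L6b, inside the range of 6.72 to 6.90 of the other arrays. *Stx1a*, the gene of syntaxin 1A, stood at 2.29 in L6b and at 3.49 to 4.14 elsewhere, so that L6b was more than 2-fold below every other array. *Snap23*, a relative of *Snap25* found in many tissues, stood at -0.72 in L6b and at 2.12 in callosal L5, with the other arrays at 0.20 to 1.01. *Stx3*, the syntaxin of ribbon synapses, stood at 1.20 in L6b and at -0.01 to 0.70 elsewhere. *Vamp1*, a synaptobrevin gene, had an L6b enrichment of -0.40. *Vamp2* was not named alone by a probe set and was not analysed here.

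Among the calcium sensors, *Syt1*, the main sensor of fast release in the forebrain, stood at 5.91 in L6b and at 5.93 to 6.13 in the L2/3 arrays and callosal L5, but at 4.87 in association L5, more than 2-fold lower than in each other array. *Syt10* stood at 3.57 in L6b and at -0.12 to 1.68 elsewhere, an L6b enrichment of 2.79. *Syt4*, a synaptotagmin that does not bind calcium in the usual way, stood at 1.05 in L6b and at 3.20 to 4.07 elsewhere, an enrichment of -2.47. *Syt11* had -1.18 and *Syt17* had -0.74. The median of the 15 synaptotagmin and Doc2 genes was -0.07.

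Among the priming and active zone genes, *Rab3b*, a small GTPase of vesicles, stood at 1.80 in L6b and at 0.20 to 0.34 elsewhere. *Erc1*, an active zone scaffold gene, stood at 3.31 in L6b but at 3.11 in callosal L5, so its enrichment of 1.26 did not set L6b apart. *Ppfia2*, which encodes liprin-alpha-2, was highest in association L2/3, at 5.29, and stood at 1.84 in L6b and 1.99 in association L5. *Unc13a*, the gene of the priming factor Munc13-1, had an enrichment of -0.92, *Cadps2* had -0.93, and *Rims1* had 0.02.

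Among the genes of SNARE disassembly and other regulators, the median was -0.45 over 11 genes, and 4 of the 11 were lowest in L6b, near the share of 30.5% of all genes. *Nsf*, the ATPase that takes SNARE complexes apart, stood at 3.69 in L6b and at 4.69 to 4.86 elsewhere. *Stxbp5l*, which encodes a tomosyn that competes for SNAREs, stood at 1.53 in L6b and at 2.93 to 3.37 elsewhere. *Napb* and *Stxbp6* had an L6b enrichment of -0.70 and -0.54. *Snapin* was highest in callosal L5, at 4.12, with 2.35 in L6b.

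**Figure D4:**
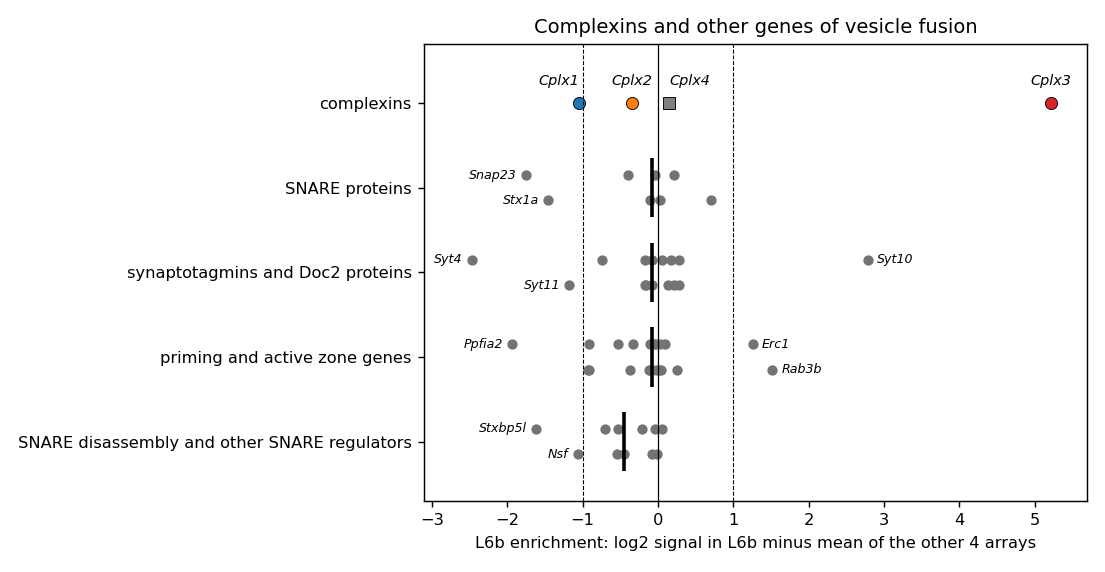
L6b enrichment on the log2 scale (horizontal axis) for the 4 complexin genes and of 54 genes in 4 lists of vesicle fusion (vertical axis), 1 point per gene, with black bars for list medians and dashed lines at 2-fold. The square marks *Cplx4*, which did not pass the filter. *Cplx3* at 5.22 lies to the right of every other gene shown, and *Cplx1* at -1.05 lies to the left of all 4 list medians.

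Other genes of ribbon synapses and of the retina, where *Cplx3* and *Cplx4* are best known, were followed too. Of 12 such genes, 10 have a probe set, 7 passed the filter, and 0 stood 2-fold or more apart in L6b from all other arrays, beside 1.26% of all genes above and 2.82% below, so that a count of 0 in so few genes says little. *Stx3* had the largest enrichment, 0.71, and *Cabp4* and *Slc17a8* had -0.13 and -0.08. Of 7 genes of the enzymes and carriers of prenylation, the lipid attachment that *Cplx3* and *Cplx4* undergo, 6 passed the filter, with L6b enrichment between -0.30 for *Pggt1b* and 0.30 for *Pde6d*. The farnesyltransferase subunit gene *Fnta* stood at 1.48 in L6b and at 0.44 in callosal L2/3, and *Fntb* was below the array median in every array.

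Markers of other cells moved with the arrays. GABAergic neurons also express *Cplx1*, and 18 of 19 GABAergic markers have a probe set. Their summed linear signal was 61.5 times the array median in L6b and 104 to 123 times in the other arrays, and of the 14 that passed the filter 5 were lowest in L6b, near the share of 30.5% of all genes. In L6b 2 of the 14, *Pvalb* and *Sst*, stood 2-fold or more below every other array, beside 2.82% of all genes. *Pvalb*, the parvalbumin gene of fast-spiking interneurons, stood at -1.38 in L6b, 2.26 in callosal L2/3, and 4.41 to 4.57 in the other arrays. *Sst* had an L6b enrichment of -1.78. *Npy* had -1.12, but its lowest array was callosal L5, at 1.65 beside 2.40 in L6b, and *Gad1* stood at 0.45 in L6b and 1.18 to 2.00 elsewhere. The part of these cells in the *Cplx1* values was not tested.

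Glutamatergic markers had a summed signal of 53.8 in L6b and 89.7 to 123 elsewhere. Of 9 measured, 6 were lowest in L6b (30.5% of all genes were) and 4 of these stood 2-fold or more below every other array (2.82% of all genes did). *Camk2a* had an L6b enrichment of -2.71, *Nrgn* of -1.88, and *Grin2b* of -1.43, while *Slc17a7*, the vesicular glutamate transporter gene, stood at 3.98 in L6b and 3.84 to 4.47 elsewhere, and *Neurod6* and *Neurod2* had 0.56 and -0.02. Oligodendrocyte markers had a summed signal of 65.6 in L6b, 56.4 in association L5, 35.8 in callosal L5, and 16.3 and 17.2 in the L2/3 arrays, and *Mog*, *Ugt8a*, and *Opalin* had an L6b enrichment of 3.31, 1.74, and 1.68. The single markers differed between L6b and association L5, with *Mog* at 4.12 and 1.28 and *Mag* at 1.47 and 3.96. The part of oligodendrocyte RNA in the *Cplx3* values was not tested. Of 9 L6a corticothalamic markers 7 passed the filter, and *Tle4*, *Sla*, and *Rprm* led with 2.98, 1.66, and 0.76. The median of the 7 was 0.28, and 6 of them were highest in L6b, beside 21.3% of all genes. *Tbr1* was lowest in L6b, with -0.67, and *Foxp2* and *Ntsr1* did not pass the filter. *Sla* passed it through L6b alone, at 0.44 there and -1.40 to -1.13 elsewhere. The L5 markers *Rbp4*, *Etv1*, and *Pcp4* had -1.80, -1.37, and 1.33. The summed signals of astrocyte markers were 45.8 in L6b and 63.6 to 93.8 elsewhere. Most of this gap came from *Aldoc*, with an L6b enrichment of -2.46. The median over the 8 astrocyte markers that passed the filter was -0.14, and *Gja1* had 0.36. Of the 8, 2 were lowest in L6b, beside 30.5% of all genes. The summed signals of microglia markers (10.3 in L6b, 10.7 to 11.6 elsewhere) and of endothelial and mural markers (13.4, and 12.3 to 15.6 elsewhere) did not set L6b apart.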

How the data were processed

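The authors hybridized amplified cDNA to Affymetrix arrays (Mouse Gene 1.0 ST) and deposited 1 table of log2 signals for 35556 probe sets. Expression Console (Affymetrix) is the tool in the submitters' processing notes. Its version was not given in the sources used here, and neither was its method of probe summary. That the scale is log2 was read from the values (1.11 to 14.2, with 2 decimals), and whether they hold the global normalization of the methods is not stated. An annotation of the platform gave 1 symbol for 21789 probe sets, several for 1621, and none for 12146. Entrez identifiers matched 21698 of those with 1 symbol to a RefSeq gene table.

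The median of each array (5.71 to 5.80) was subtracted with pandas 2.3.3. The probe set with the highest mean represented a gene. No test was run, since each group has 1 array, which limits the precision of every value. The steps were tested on simulated data with a smaller spread between arrays than these arrays have. That checked the steps and does not show how often a 2-fold difference here is false. Named were the family, its 5 nearest profiles, members of the fusion lists 2-fold apart in 1 array or among the 4 largest of their list, and the 3 largest of other lists or members a result turns on. Where a named gene falls outside this rule (*Snap25*, *Syt1*, *Vamp1*, *Stx3*, and the like) it was chosen for its role. The members and lists were chosen with earlier results of these data known. Other scalings, filters, comparators, and probe set rules were tried.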

Additional observations from a re-analysis of the deposited data

Results flagged for a closer look

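A few differences had opposite signs in the compared groups, each from 1 array per group, and none of these was tested. The association minus callosal difference of *Cplx2* was 0.35 in L2/3 and -0.14 in L5, 0.49 apart. Seen by layer, its L5 minus L2/3 difference was -0.22 in association and 0.27 in callosal neurons, -0.49 apart. The association minus callosal difference of *Cplx3* was 0.33 in L2/3 and -0.37 in L5, 0.70 apart, with all 4 signals near the array median. That of *Cplx4* was -0.01 and 0.08, -0.09 apart, from signals below the array median, and it was 0.02 in L2/3 after quantile normalization, where the sign no longer differed between the layers.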

How the results depend on the processing

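The L6b enrichment of the 4 genes kept its sign, and 1 gene stood 2-fold or more above and 0 stood 2-fold or more below all other arrays in L6b, under all 12 alternatives run. Not all of these could change the outcome. The filters were not applied to the family and each member has 1 probe set, so filters and probe set rules left its values as they were. The choice of comparator could not change the 2-fold counts. Across scalings, filters, probe set rules, and comparators the enrichment ranged from 4.83 to 5.59 for *Cplx3*, from -1.41 to -0.62 for *Cplx1*, from -0.51 to -0.13 for *Cplx2*, and from 0.09 to 0.26 for *Cplx4*. When 1 of the other arrays was left out, the ranges were 5.10 to 5.35, -1.19 to -0.93, -0.41 to -0.29, and 0.14 to 0.17. The 2-fold mark of *Cplx1* was missed with the values as deposited (-0.99), after subtraction of 75th percentiles (-0.94), after quantile normalization (-0.95), and without association L5 or callosal L5 (-0.93 each), as well as against the lowest other array (-0.62). Subtraction of 75th percentiles moved the median enrichment of all genes from -0.06 to 0.05. With a filter at the 75th percentile, which left 6565 genes, the shares of all genes 2-fold or more above and below in L6b were 2.22% and 5.35%, against 1.26% and 2.82% in the report, and without a filter 0.818% and 1.79%. The median of the fusion genes was 0.02 after subtraction of 75th percentiles and 0.11 against the lowest of the other arrays. No paired analysis was possible because each group has 1 array. Signals below the array median, such as those of *Cplx4*, limit what can be read from small differences.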
